A study of Mus musculus with 2 samples.

Results

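The genes described here were 10 targets and modifiers of Notch signalling, namely the transcriptional repressors Hey1, Hey2, Heyl, Hes1, Hes5 and Hes6, the feedback inhibitor Nrarp, the ubiquitin ligase Dtx1 and the glycosyltransferases Lfng and Mfng. They were chosen by name, with earlier results of these data known, and every non-control probe that the array files assign to them by gene name or by accession was taken. This gave 12 probes of 41174 on the array and 10 genes of 27670 gene names. Heyl and Hes6 had 2 probes each and every other gene had 1. In all, 11 of the 12 probes were bright enough to be tested, of 23685 probes tested on the whole array, and the probe of Lfng was not.

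The samples were stromal cells of the fetal thymus of C57BL/6 mice (the labels give the strain on the 2D channel). Lobes were taken from E14.5 or E15.5 embryos and kept in organ culture with 1.35 mM deoxyguanosine, which kills developing thymocytes, for 8 days (E14.5) or 9 days (E15.5). The dispersed cells were then grown for 72 h either on a flat dish (2D culture) or packed together on a membrane as a reaggregation thymus organ culture (RTOC). Both groups therefore shared the deoxyguanosine, the organ culture and the dispersal. On each of 2 two-colour arrays, the RNA of the 2D culture was labelled with Cy3 and that of the RTOC with Cy5, so that n = 2 arrays throughout and each ratio was taken within an array. No array had the dyes the other way round, so the dye preference of a probe and the effect of culture cannot be told apart. Nor can stage, days in organ culture and array, since each stage was on an array of its own. The share of probes well above background was 53.1% and 53.5% in the 2D channels and 56.3% and 60.9% in the RTOC channels.

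Notch is a receptor that is read by contact between neighbouring cells. A ligand of the Delta or Jagged family on a cell engages the receptor on the next, the receptor is cut by a metalloprotease and by gamma-secretase, and its intracellular part enters the nucleus, joins the DNA-binding protein RBPJ and switches on target genes, among which the Hes and Hey repressors are the best known. In the thymus the ligand DLL4 on epithelial cells directs incoming progenitors to the T-cell lineage, and Notch signalling also acts among stromal cells, above all in blood vessels.

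The probes were oligonucleotides of 60 bases, each printed as a single spot. The first 30 bases of the probes on which the main results rest are shown so that each measurement can be tied to a sequence, and both probes of Heyl and Hes6 are given because their values are compared below.
Hey1: gatttgggctctaaaagtattgttttacag
Hey2: ccagaggctcattgacaccaactcaaaaac
Heyl, probe 1: aatcattttcttcaaggtctttgcccttct
Heyl, probe 2: actgcagaacagtctcttgacactatgggg
Hes1: acactgattttggatgcacttaagaaagat
Hes5: acgatgatccttaaaggattcctttgtatg
Hes6, probe 1: tctagggcagaagtggccaatcttgagact
Hes6, probe 2: ctagagaacgccgaggttctggagctgacc
Nrarp: ttttttgaatcttggttatgaacccaattt
Mfng: atggacctagactttagaagcccagaaggc

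Taken by their brightest probe, 8 of the 9 tested genes were higher in RTOC than in 2D culture and none was lower (limma, Benjamini-Hochberg adjusted over all 23685 tested probes, threshold 0.05). The genes that passed were Hey1, Hey2, Heyl, Hes5, Hes6, Nrarp, Dtx1 and Mfng, and the tested gene that did not was Hes1. All 8 calls were lost with no filter on dim probes and with the methods' t-test, under which no probe of the array passed. Over the whole array 15.2% of tested probes were higher in RTOC and 13.6% were lower, and of the 16136 genes taken by their brightest probe 16.6% were higher and 12.0% lower. Hes5 and Mfng, whose 2D signals were not well above background, passed the filter on dim signals only through RTOC and so had to differ in that direction. Of the 7 genes detected in both cultures 6 were called higher, against 13.4% of the 14981 genes of the array that were detected in both. The median log2 ratio of RTOC over 2D was 2.54 over these 7 genes, and 1.32 with another background correction and normalization (normexp and loess). It was 2.83 over all 9 genes, where it is the fitted value of Mfng, 2.37 with Hes5 and Mfng at the bounds given below, and 1.14 over the 9 genes after normexp and loess. The median over the 16136 genes was 0.05. In 8 of the 9 genes both RTOC channels were brighter than both 2D channels, as for 32.6% of all tested probes. At least 2-fold higher signals in RTOC on both arrays were found for 7 of the 9 genes, against 10.8% of all tested probes. Both of these counts include Hes5 and Mfng. A test that uses only these 2 arrays cannot give a p below 0.5 by exchanging the signs of the ratios, so every adjusted p below rests on the spread that limma shares between probes. None of the spots was saturated. All intensities below are quantile-normalized processed signals. Levels of different probes were not compared as amounts of RNA, and the summed intensities given for marker lists add signals of unlike probes.

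**Figure D1:**
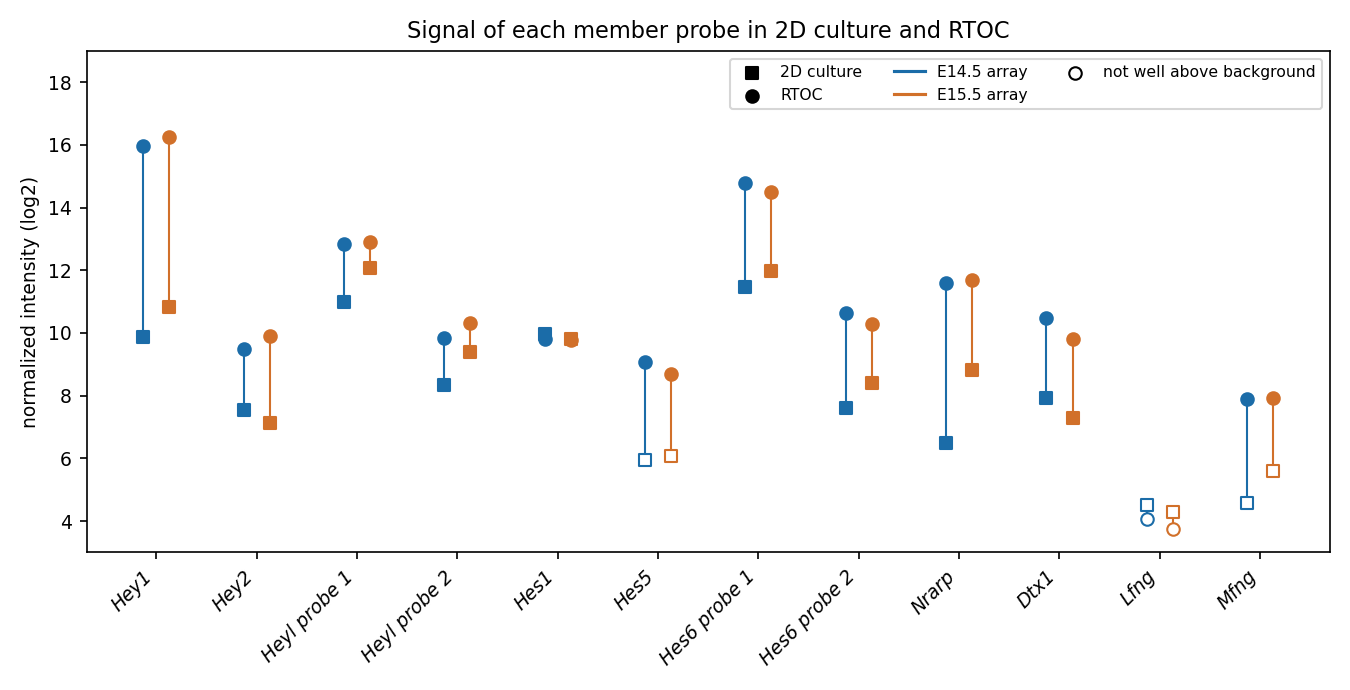
Normalized log2 intensity of each probe of the 10 genes in the 4 channels, 2D culture and RTOC for the E14.5 and the E15.5 array, with open symbols for channels not well above background. Each point is 1 spot, and Hes1 and Lfng are the genes in which the 2 cultures are not separated with RTOC above 2D.

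Among the Hey genes, which encode repressors with a basic helix-loop-helix domain, Hey1 gave the largest ratio. Its intensity was 930.2 (E14.5) and 1822 (E15.5) in 2D culture and rose to 63736 and 78040 in RTOC. The channels of the cultures were thus far apart, with log2 ratios of 6.10 and 5.42, and only 9 of the 13506 genes named through the RefSeq table had a larger mean ratio. The mean log2 ratio was 5.76 with a standard error of 0.29 and a 95% confidence interval of 5.04 to 6.48 (limma adjusted p = 0.00161). Since the study singled out Hey1 on these very arrays, its ratio is not independent evidence.

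Hey2, a relative of Hey1 known for its role in arteries and the heart, was much less different. Its intensity was 184.8 (E14.5) and 140.7 (E15.5) in 2D culture against 723.3 and 956.5 in RTOC. The 2 cultures did not overlap, and the log2 ratio was 1.97 (E14.5) and 2.77 (E15.5), with a mean of 2.37 ± 0.56 (SD, n = 2 arrays; limma adjusted p = 0.00528). It was the only one of the 8 genes called higher in which the larger ratio was that of E15.5. Its mean was 1.14 after normexp and loess.

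Heyl, the last of the Hey family, had the smallest ratio that passed, and its 2 probes gave like values. Probe 1 read 2046 (E14.5) and 4329 (E15.5) in 2D culture and 7283 and 7576 in RTOC, and its log2 ratio was 1.83 and 0.81, with a mean of 1.32 ± 0.72 (limma adjusted p = 0.0362). Probe 2 read 321.4 and 677.4 in 2D culture and 913.9 and 1267 in RTOC, with a mean of 1.21 ± 0.43 (limma adjusted p = 0.0295). On both probes the RTOC channels stayed above the 2D channels. On the E15.5 array the log2 ratio of both probes fell short of 1, at 0.81 and 0.9, against 1.83 and 1.51 on the E14.5 array. The 2D signal of each probe was higher by 1.08 on the E15.5 array. The call of probe 1 was lost with a trend and robust spread (limma adjusted p = 0.0591), without the pairing by array (0.0836) and after normexp and loess (0.0652).

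Hes1, the target most often used to read Notch activity, did not pass the test. Its intensity was 992.6 (E14.5) and 906.5 (E15.5) in 2D culture and 892.6 and 872.0 in RTOC. All 4 channels lay well above background and close together, with the RTOC channel slightly the dimmer on both arrays. The log2 ratio was -0.15 and -0.06, with a mean of -0.10 ± 0.07 (limma adjusted p = 0.776), and the 95% confidence interval of the ratio ran from -0.73 to 0.52. The interval of Hes6, the other Hes gene detected in both cultures, began at 2.16. The sign of the Hes1 mean turned to 0.02 after normexp and loess.

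Hes5, a repressor best known from neural progenitors, did not exceed background clearly in the 2D channel of either array and was detected in RTOC on both. The 2D signals were 61.8 (E14.5) and 67.8 (E15.5), and the RTOC signals were 539.7 and 411.1. The RTOC signal was at least 1.87-fold higher, a bound set on the scale of each channel after normexp (offset 50), loess and Aquantile, from the mean RTOC signal over the higher of the lowest detected 2D signal and the probe's own. All bounds below were set in this way, are not to be computed from the intensities printed here, and are open to dye bias. The fit, which takes the 2D signals at face value, gave log2 ratios of 3.13 and 2.60 with a mean of 2.86 ± 0.37 (limma adjusted p = 0.00267). That mean dropped to 0.91 after normexp and loess.

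Hes6, which is described as an inhibitor of Hes1, was higher in RTOC on both of its probes. Probe 1 read 2794 (E14.5) and 4039 (E15.5) in 2D culture and 27850 and 23097 in RTOC, a mean log2 ratio of 2.92 ± 0.57 (limma adjusted p = 0.00315). Probe 2 read 194.7 and 340.6 in 2D culture and 1591 and 1242 in RTOC, with a mean of 2.45 ± 0.82 (limma adjusted p = 0.00736). Neither probe showed any overlap between the cultures, and on both the E14.5 array gave the larger ratio, 3.32 against 2.52 for probe 1 and 3.03 against 1.87 for probe 2. Probe 1 moved to 2.67 after normexp and loess.

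Nrarp, a small ankyrin-repeat protein that is induced by Notch and promotes loss of the Notch intracellular part, had the next largest ratio after Hey1. Its intensity was 90.0 (E14.5) and 454.2 (E15.5) in 2D culture and 3113 and 3318 in RTOC. The RTOC channels were nearly equal and both exceeded the 2D channels, while the 2D channels lay 2.33 apart on the log2 scale. The log2 ratio was therefore 5.11 (E14.5) and 2.87 (E15.5), with a mean of 3.99 ± 1.59 (limma adjusted p = 0.00622). Of the 20158 probes detected in every channel, 99.2% had a smaller difference between the 2D channels and 99.3% a smaller difference between the 2 ratios. The E14.5 2D signal of 90.0 was weak, as a Bhlhe41 probe at 94.4 in that channel was not well above background. The ratio of 5.11 and these differences rest on that spot. The mean was 2.44 after normexp and loess, with the call kept, below the 2.67 of Hes6 in that setting.

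Dtx1, a ubiquitin ligase of the Deltex family that binds the Notch intracellular part, had the steadiest ratio. It read 243.4 (E14.5) and 155.0 (E15.5) in 2D culture and 1421 and 898.4 in RTOC. Both cultures were dimmer on the E15.5 array, by 0.65 (2D culture) and 0.66 (RTOC) on the log2 scale, and the ratio was 2.55 and 2.53, a mean of 2.54 ± 0.01 (limma adjusted p = 0.00284). The standard error of 0.25 that limma gives, from the spread shared with other probes, is the better guide to its precision. The mean was 1.32 after normexp and loess.

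The Fringe proteins add a sugar to Notch in the Golgi and so alter which ligands it answers to. Mfng did not stand well above background in either 2D channel, at 23.9 (E14.5) and 48.2 (E15.5), and was detected in RTOC at 238.5 and 244.8. The RTOC signal was at least 1.35-fold higher, and the fit gave log2 ratios of 3.32 and 2.35 with a mean of 2.83 ± 0.69 (limma adjusted p = 0.00398). This call was lost after normexp and loess, with a mean of 0.48 (limma adjusted p = 0.0761). Lfng was not well above background in any of the 4 channels, at 22.6 and 19.7 in 2D culture and 16.9 and 13.4 in RTOC, and was given no ratio. Rfng, the remaining Fringe gene, was also not detected in either culture.

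**Figure D2:**
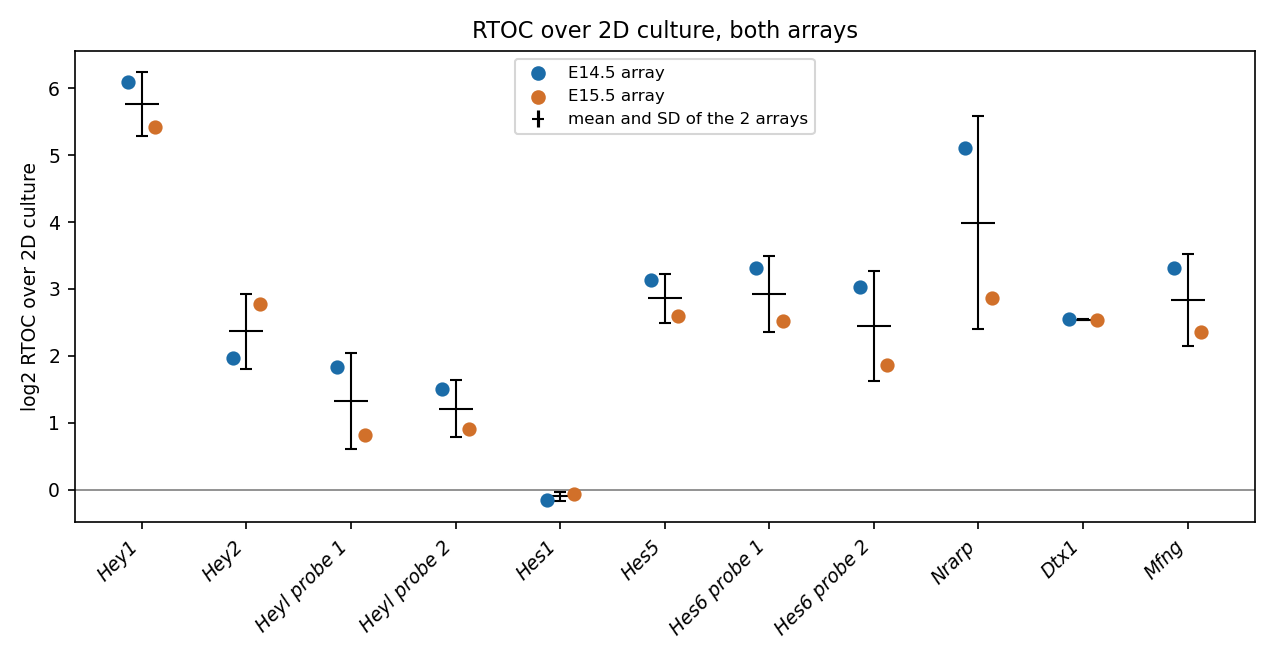
Log2 ratio of RTOC over 2D culture for each tested probe of the 9 genes, with a point for each of the 2 arrays (E14.5 and E15.5) and the mean. Those of Hes5 and Mfng rest on 2D signals not well above background. The mean ratios run from -0.10 for Hes1 to 5.76 for Hey1, and Nrarp shows the widest gap between the arrays.

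Ordered by mean ratio, the 7 genes detected in both cultures ran Hey1, Nrarp, Hes6, Dtx1, Hey2, Heyl and Hes1. After normexp and loess Hes6 (2.67) stood above Nrarp (2.44). Hes5 and Mfng, which have only a bound, were given no place. The ratios of Hes6, Dtx1 and Hey2 overlapped from one gene to the next and their order is within the spread of the arrays. Those of Nrarp overlapped with Hes6. The ratio of Hey1 on both arrays was above that of each of the other 6 genes, and the ratios of Heyl on both arrays were below those of Hey2 and above those of Hes1. Of the 13506 named genes, 99.3% had a smaller mean ratio than Nrarp, 97.6% than Hes6, 96.3% than Dtx1, 95.6% than Hey2, 88.5% than Heyl and 44.4% than Hes1.

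**Figure D3:**
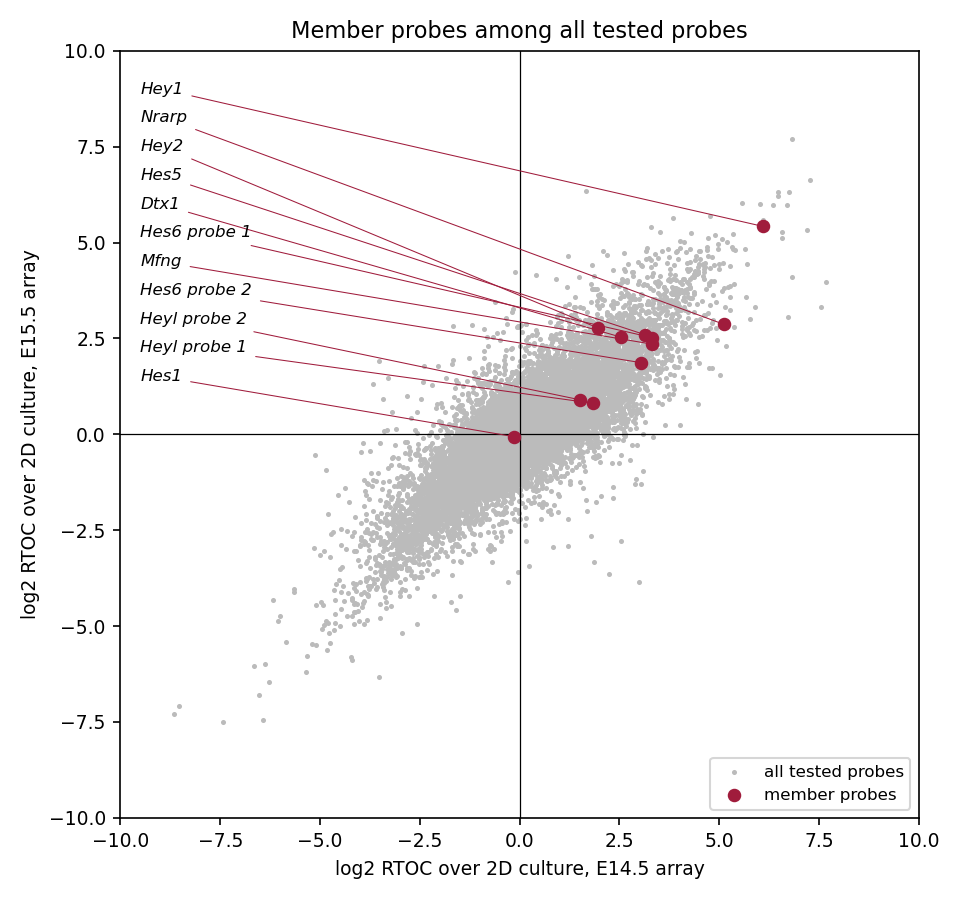
Log2 ratio of RTOC over 2D culture on the E14.5 array (horizontal) against the E15.5 array (vertical) for all 23685 tested probes in grey and the 11 tested probes of the Notch genes in colour. All but Hes1 lie in the quadrant where both arrays were higher in RTOC, and Hey1 lies among the most extreme probes.

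The arrays were also compared with each other within each culture. For 5 of the 7 genes detected in every channel, the E15.5 and E14.5 signals lay further apart in 2D culture than in RTOC, and the same was true of 59.1% of the 20158 probes detected in every channel. On the log2 scale Hey1 differed by 0.97 (2D culture) and 0.29 (RTOC), and Heyl probe 1 by 1.08 and 0.06, each with the brighter 2D signal for E15.5. Nrarp showed the same form, with 2.33 and 0.09. A larger ratio on the E14.5 array was found for 5 of the 6 such genes called higher, against 66.4% of the probes called higher among those detected in every channel. With a single array for each stage, none of these differences between stages could be tested.

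The 5 genes whose pair of ratios was nearest to that of Hey1, among 12073 genes detected in every channel, were Cdh8, Prss16, Lgi2, Pth and Grp. Their distances from Hey1 on the log2 scale ran from 0.613 for Cdh8 to 1.09 for Grp. Cdh8, a cadherin, had ratios of 6.34 and 5.99, Prss16, the thymus-specific serine protease, had 5.34 and 5.23, and Pth, which encodes parathyroid hormone, had 5.2 and 5.02. For Hes1, near the middle of the array, the nearest genes were Ube3b, Sec62, Atp5d, Slc14a2 and Rbks, all within 0.00986 of its ratios.

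The promoters of the genes were searched for the letters TGGGAA, the core of the sequence that RBPJ binds, on both strands. RefSeq windows of 250 bases before to 50 after each start (assembly GRCm38.p6) were at hand for Hey2, Hes5, Hes6, Nrarp, Dtx1 and Lfng. Those of Hes5, Hey2, Lfng and Nrarp are shown up to 10 bases past the start, the first 3 because they hold matches and Nrarp as a gene with a large ratio and none. Capitals mark TGGGAA or its reverse complement TTCCCA.
Hes5, chr4:154960673-154960932, plus strand: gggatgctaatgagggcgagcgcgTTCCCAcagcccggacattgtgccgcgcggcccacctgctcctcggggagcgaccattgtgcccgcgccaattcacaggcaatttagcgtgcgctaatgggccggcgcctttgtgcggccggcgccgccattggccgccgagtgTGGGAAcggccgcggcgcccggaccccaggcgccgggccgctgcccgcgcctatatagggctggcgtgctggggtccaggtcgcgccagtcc
Hey2, chr10:30842774-30843033, minus strand: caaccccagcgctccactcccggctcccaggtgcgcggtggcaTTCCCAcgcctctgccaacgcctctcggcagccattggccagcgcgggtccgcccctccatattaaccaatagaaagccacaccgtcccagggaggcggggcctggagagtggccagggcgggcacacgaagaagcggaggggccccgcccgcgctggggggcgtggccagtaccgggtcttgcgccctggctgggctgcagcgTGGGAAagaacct
Lfng, chr5:140607091-140607350, plus strand: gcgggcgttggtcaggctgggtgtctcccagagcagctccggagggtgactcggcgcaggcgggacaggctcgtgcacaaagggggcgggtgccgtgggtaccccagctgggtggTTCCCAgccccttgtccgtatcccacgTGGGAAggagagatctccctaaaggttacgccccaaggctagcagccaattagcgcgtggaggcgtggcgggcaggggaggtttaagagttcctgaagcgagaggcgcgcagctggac
Nrarp, chr2:25180508-25180767, plus strand: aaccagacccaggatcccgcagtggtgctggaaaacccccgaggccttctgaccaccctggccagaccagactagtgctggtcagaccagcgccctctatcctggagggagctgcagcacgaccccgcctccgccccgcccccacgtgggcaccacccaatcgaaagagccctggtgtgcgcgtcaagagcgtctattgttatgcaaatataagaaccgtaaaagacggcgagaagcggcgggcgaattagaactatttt

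Hes5 held 2 matches, whose first bases lie 226 and 82 bases before the start, and Hey2 held 2, at 207 and 3 bases before it. Lfng, the gene that was not detected, also held 2, at 135 and 108 bases before its start. Nrarp, Dtx1 and both start sites of Hes6 had no match in the window. At least 1 match was held by 28.3% of the 27025 genes that have such a window. The longer form GTGGGAA, on which every match of Hes5 and Hey2 and 1 of the 2 of Lfng also lies, was looked at after the shorter motif had been seen and is in 7.25% of genes. Among the genes searched, those with a match included one that was not detected, and those without included Nrarp, with a mean log2 ratio of 3.99. No window was at hand for Hey1, Heyl, Hes1 and Mfng, and a link between matches and ratios was not tested.

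Upstream of the targets, the ligands and receptors of the pathway were described by a list of 9 genes, of which 8 were tested, 3 were higher in RTOC and none was lower, with a median log2 ratio of 0.86. All 8 were detected in both cultures. Of them 37.5% were called higher, against 13.4% of the genes of the array detected in both. Dll4, the ligand that acts in the thymus, had ratios of 3.57 and 3.22, a mean of 3.40 ± 0.25 (limma adjusted p = 0.00184). Notch4, a receptor known from endothelium, had 3.24 and 3.20 with a mean of 3.22 ± 0.03 (limma adjusted p = 0.00189), and the ligand Jag2 had 2.06 and 1.75 with a mean of 1.90 ± 0.21 (limma adjusted p = 0.00625). Taken by their brightest probe, the other receptors did not pass. Their mean log2 ratios were 1.01 for Notch1, -0.07 for Notch2 and 0.72 for Notch3 (limma adjusted p = 0.0725 for Notch1 and 0.133 for Notch3). A further tested probe gave 1.0 for Notch1 and -1.25 for Notch2. Among the other ligands, Jag1 had -0.78 (limma adjusted p = 0.0751) on its brightest probe and -1.22 on a further tested probe. Dll1 went opposite ways on the arrays, with 1.68 and -0.43, and Dll3 was not detected.

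The genes that process the receptor or handle the ligands showed no common direction. Of 19 listed, 18 were tested, 1 was higher and 4 were lower, with a median log2 ratio of -0.04. Fbxw7, which marks the Notch intracellular part for breakdown, was higher (1.06, limma adjusted p = 0.0305). Lower were the metalloprotease Adam10 (-1.0, limma adjusted p = 0.0354), the convertase Furin (-1.72, limma adjusted p = 0.00760), Neurl1a, a ubiquitin ligase for ligands (-1.48, limma adjusted p = 0.0122), and the gamma-secretase subunit Ncstn (-1.87, limma adjusted p = 0.00762). Ncstn was not well above background in RTOC, where its signal was at least 1.24-fold lower. Of the 16 genes of the nuclear complex 15 were tested and none was called, with a median of -0.28. Its DNA-binding member Rbpj had ratios of -1.74 and -0.57, a mean of -1.16 ± 0.83 (limma adjusted p = 0.0599).

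Among 11 listed relatives of the Hes, Hey, Fringe and Deltex genes, Rfng included, 10 were on the array, 5 could be tested, none was higher and 1 was lower, the helix-loop-helix repressor Bhlhe40 (-1.72, limma adjusted p = 0.00859). Hes3, Hes7 and Helt were not detected. A list of 11 other genes that are described as Notch targets in various tissues was tested in full, with 2 higher, 3 lower and a median of -0.33. Il2ra, a receptor chain of early thymocytes, was higher (1.76, limma adjusted p = 0.0201) but its 2D signal was not well above background, so that it was at least 1.14-fold higher, and Snai2, a regulator of mesenchymal state, had 1.18 (limma adjusted p = 0.0248). Lower were the cell-cycle genes Ccnd1 (-2.80, limma adjusted p = 0.00256) and Cdkn1a (-2.86, limma adjusted p = 0.00233) and the transcription factor Gata3 (-1.62, limma adjusted p = 0.0120). Over these 5 lists, 56 of 65 genes were tested, 6 were higher and 8 lower, and the median was -0.12. Set against the 16.6% of genes higher and 12.0% lower over the whole array, these counts over the 5 lists together are near the background.

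**Figure D4:**
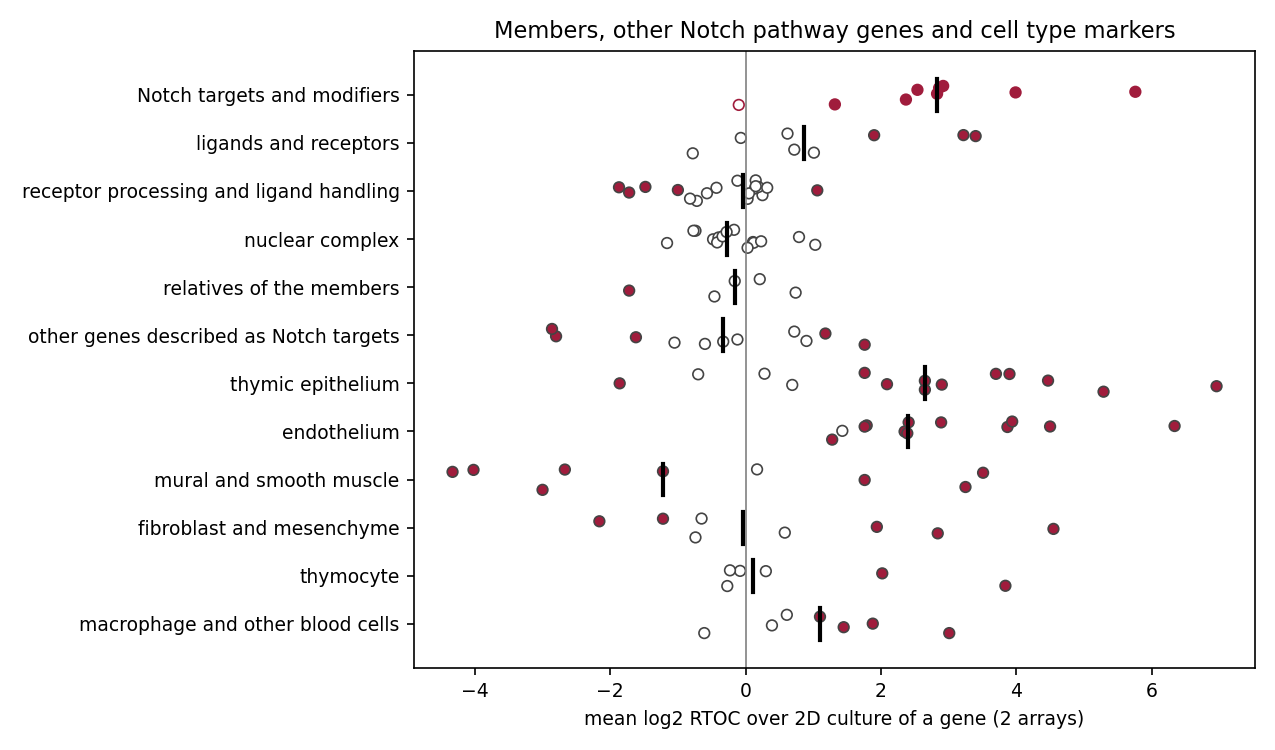
Mean ratio of RTOC over 2D culture (log2 scale) for each tested gene in the Notch targets and modifiers, in the other pathway lists and in the marker lists, with filled points for limma adjusted p under 0.05 and a black bar for the median of a list. The medians over all tested genes, with fitted values also for those not detected in 1 culture, are 2.83 for the targets and modifiers, 0.86 for ligands and receptors and between -0.33 and -0.04 for the other pathway lists.

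Markers of several cell types moved in the same direction as the Notch genes. In these bulk samples fewer cells of a type and less RNA per cell cannot be told apart. Among genes detected in both cultures, 83.3% of endothelial and 69.2% of thymic epithelial markers were higher, against 13.4% over the array. Of 12 endothelial markers tested, 11 were higher in RTOC and none was lower. Their summed intensity was 2259 to 2321 in 2D culture and 11896 to 16974 in RTOC, and Cdh5, Pecam1, Tek, Tie1, Sox17 and Erg did not stand well above background in either 2D channel. These 6 could be tested only through RTOC, and of the other 6 markers 5 were higher, with a median log2 ratio of 2.65 (1.04 after normexp and loess). With the undetected markers at their bounds the median of the 12 was 1.53. Of 14 thymic epithelial markers 10 were higher, Aire among them only through RTOC, and 1, Krt14 (-1.86), was lower. Their median was 2.65, and 2.28 after normexp and loess. Over the 13 detected in both cultures it was 2.65 and 2.6. The summed intensity was 299418 to 606139 in 2D culture and 1150427 to 1157170 in RTOC. Krt8 (130796 for E14.5 and 378851 for E15.5) and Krt18 (109141 and 158739), neither of which was called, gave most of the 2D sum. The part of the endothelial and epithelial markers in the ratios of the Notch genes was not tested.

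Other cell types gave mixed counts. Of 9 mural and smooth muscle markers tested, 3 were higher and 5 were lower. Their summed intensity was 517711 to 622528 in 2D culture and 87455 to 115782 in RTOC. Most of the 2D sum came from Acta2 (277478 for E14.5 and 253347 for E15.5) and Tagln (262153 and 222820). The 3 that were higher were Rgs5 (3.25), Kcnj8 (3.51) and Abcc9 (1.76). The 5 that were lower were Acta2 (-3.0), Tagln (-4.33), Cnn1 (-4.02), Cspg4 (-2.67) and Pdgfrb (-1.22). Of 8 fibroblast markers 3 were higher and 2 lower, with a median of -0.04 and a summed intensity of 307097 to 389522 in 2D culture and 259828 to 279441 in RTOC. Of 8 macrophage and blood markers 7 were tested, 4 were higher and none was lower, with a median log2 ratio of 1.1. Their summed intensity was 60954 to 71225 in 2D culture and 171772 to 222285 in RTOC, and Spi1 was not detected. Of 12 thymocyte markers 6 were tested, of which Cd3g and Cd3d were higher and none was lower. Cd3g (3.84) was not well above background in the 2D channel of E15.5, and Cd3d, not well above it in either 2D channel, was at least 1.31-fold higher. Cd3e, Lck, Cd5 and Bcl11b were detected in all 4 channels and were not called, with mean log2 ratios of -0.08, 0.30, -0.27 and -0.23. Cd247, Rag2, Cd8a and Cd2 were not well above background in either culture. The summed intensity of the thymocyte list went opposite ways on the arrays. It was 1120 in 2D culture and 3153 in RTOC for E14.5, and 1790 and 1705 for E15.5. Whether any of these cell types carried the Notch target RNA was not tested.

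**Figure D5:**
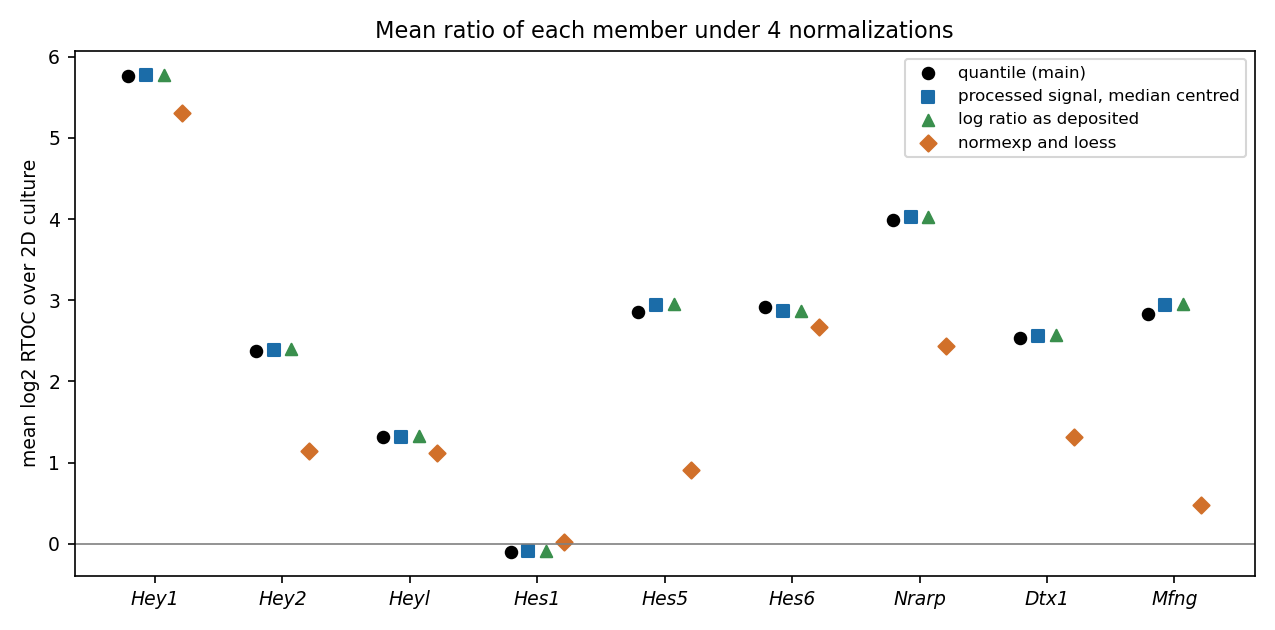
Mean ratio of RTOC over 2D culture (log2 scale) for the 9 tested genes with quantile normalization (main), median centring, the deposited log ratio, and normexp with loess. Hey1 stays above 5 in every setting, while Hes5 and Mfng fall to 0.91 and 0.48 with the normexp background correction.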

How the data were processed

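RNA of RTOC (Cy5) and of 2D culture (Cy3) was hybridized on 2 Agilent whole mouse genome arrays of 1 slide. The authors extracted the spots with Feature Extraction (version 11.5.1.1 in the submitters' processing notes, 9.1.3.1 in the settings of the files). The deposited files hold mean and background signals and a processed signal, all as intensity, flags, and a log10 ratio of Cy5 over Cy3. The deposited series values are the log10 ratio of the processed signals (largest difference 5e-10). The p-value of the ratio from a single array, also deposited, was not used.

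Control spots and outlier spots (5 and 1) were left out, the processed signals of the 4 channels were quantile normalized, as the methods state for all arrays, spots of a probe were averaged, and log2 of Cy5 over Cy3 was taken. Of 41174 probes, 22951 were named by accession, 6659 by symbol and 3109 by an older symbol through RefSeq, and 8455 kept the name in the files. Probes well above background in at least 1 channel on each array (23685) were tested against 0 with limma 3.58.1 in R 4.3.3 (lmFit, eBayes, two-sided, residual degrees of freedom 1, prior 4.5), adjusted over all of them. The fit was tested on simulated data first. A gene was taken by its brightest tested probe. All probes of the 10 genes and any gene of the lists could be named, and the nearest genes were chosen by Euclidean distance. The members and lists were chosen with earlier results of these data known. Where a culture was not well above background on both arrays, a bound was given from the lowest signal among probes that were, after normexp, loess and Aquantile. The stages were treated as replicates, from separate experiments, and the number of arrays limits the precision. Alternatives were other normalizations, filters, spreads and tests.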

Additional observations from a re-analysis of the deposited data

How the results depend on the processing

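The counts of genes called were recomputed under 12 alternatives where each could give a test. Normexp and loess gave the same ratios with and without Aquantile. The deposited log ratio and the series values also gave the same ratios for the Notch genes, so neither pair holds separate checks. Of the 8 Notch genes called higher, 8 were called with median centring, with the deposited log ratio, with the series values, with outlier spots kept and with the median over the probes of a gene. With a trend and robust spread and with no replicate block (4 channels as groups, without pairing by array) 7 were called, without Heyl in both cases. After normexp and loess, with or without Aquantile, 6 were called, without Heyl and Mfng, and with both channels of both arrays required above background 6 were called, since Hes5 and Mfng could not be tested there. No gene was called lower under any of these. With no filter on dim probes and with the methods' t-test none of the tested probes passed adjustment, so that the Notch genes called were 0 and the pathway genes called were 0 (14 in the main setting). Under those settings 10666 and 3539 probes had an unadjusted p under 0.05. The number of all tested probes called was 6820, and it was 3716 after normexp and loess with or without Aquantile, 4033 with no replicate block, and 0 with no filter and with the methods' t-test. A trend and robust spread turned the split of calls from 3609 higher and 3211 lower to 2492 higher and 3574 lower.

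The mean log2 ratio of Hes1 reversed from -0.10 to 0.02 after normexp and loess, with or without Aquantile, and its call stayed the same. Among tested values of single genes, with repeated settings included, 82 kept direction and call, 22 kept direction and lost the call, and 2 reversed. Over all settings the adjusted p of Hey1 ran from 0.000389 to 0.329 and that of Nrarp from 0.00278 to 0.399, the highest being those of the methods' t-test. With 1 array left out only the ratio of the other remained, with no test, and these values stand beside each gene in the report. The cause of the lower ratios after normexp was not tested. The 2D signals of Hes5 and Mfng were not well above background and allow only a bound.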
